A study of Mus musculus with 16 samples.

Results

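54 genes that build the extracellular matrix of fibroblasts were followed across a study of CHOP and proteasome inhibition: 27 collagens and collagen-modifying proteins, and 27 glycoproteins, proteoglycans and matrix sulfatases. They were chosen by name, and each was represented by the probe set that names it alone and had the highest mean log2 signal over the 16 arrays. Loxl2 and Fbn1 had no such probe set and were not analysed here. Col15a1 and Lum lay below the median signal of the array on all 16 arrays and were left untested, so that 50 of the 54 genes were tested, among 11457 genes of the whole array. Of these 50, 42 lay above the array median on all 16 arrays. The other 8 (Col11a1, Fbn2, Eln, Coch, Dcn, Fmod, Prg4 and Sulf1) entered through some of the arrays, so a difference between groups was part of the way they entered.

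The cells were mouse embryonic fibroblasts (MEF), connective tissue cells grown from embryos, of the genotypes CHOP-/- and CHOP+/+ (wild type, WT). CHOP is a transcription factor encoded by Ddit3 and induced by the integrated stress response. The 4 groups, of 4 culture plates and 4 arrays each, were CHOP-/- cells with MG132, untreated CHOP-/- cells, WT cells with MG132 and untreated WT cells. MG132, an inhibitor of the proteasome, was given at 1 µM for 8 hours. All cells shared the same serum-containing medium, and the labels of the untreated plates give no treatment in one field and DMSO, the solvent, in another. The labels do not say how many embryos or cell isolates stand behind the plates. P-values therefore measure the spread between plates, and the CHOP allele and the cell isolate that carries it cannot be told apart.

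Values are MAS5 signals, the linear summary of an Affymetrix probe set, with a trimmed mean that is the same on every array. Changes are log2 differences after adding 16 units to each signal, tested with limma over all genes, and called at an adjusted p under 0.05. Median signals ran from 90.1 to 113.4 over the 16 arrays, and replicate arrays had pairwise correlations of 0.985 to 0.992 over genes. Ddit3, the targeted gene, gave 342.2 to 429.8 in CHOP-/- cells with MG132, 343.1 to 393.2 in untreated CHOP-/- cells, 6891 to 8181 in WT cells with MG132 and 886.9 to 1127 in untreated WT cells. Whether this probe set falls inside the deleted sequence is unknown here, so it checks the labels by its level alone. Of 8 fibroblast markers, Vim, Pdgfrb, Thy1, Prrx1, Twist2 and S100a4 lay above the median of all 16 arrays, Pdgfra of 15 and Fap of none. The summed signal of the 8 ran from 69412 to 75329 in CHOP-/- cells with MG132, 93325 to 100825 in untreated CHOP-/- cells, 84472 to 95175 in WT cells with MG132 and 97392 to 120521 in untreated WT cells. Vim alone had group means of 46535 to 49753, so the sum hides differences of single markers. Pdgfra averaged 143.2 with MG132 and 118.3 untreated in CHOP-/- cells, against 2510 and 2351 in WT cells. Thy1 went the other way, with 2074 and 2727 in CHOP-/- cells against 273.9 and 227.5 in WT cells. Of 8 macrophage and leukocyte markers, Ptprc, Itgam, Lyz2 and Tyrobp lay above the median of no array, while Csf1r and Cd14 did so on all. This list summed to 2225 to 2449 in CHOP-/- cells with MG132, 1480 to 1735 in untreated CHOP-/- cells, 844 to 1104 in WT cells with MG132 and 791 to 906 in untreated WT cells. Most of the gap between genotypes was Cd14, with means of 1736 in CHOP-/- cells with MG132, 1054 in untreated CHOP-/- cells, 264 in WT cells with MG132 and 310.5 in untreated WT cells. Csf1r and Cd68 had lower means in CHOP-/- than in WT cells at both treatments. Of 6 endothelial markers 5 lay above the median of no array and Kdr of 6. This list summed to 283 to 432 in CHOP-/- cells with MG132, 100 to 252 in untreated CHOP-/- cells, 161 to 271 in WT cells with MG132 and 185 to 277 in untreated WT cells. Kdr had means of 181.1, 43.9, 75.86 and 64.29 in the same order. Epithelial markers summed to 644 to 799 in CHOP-/- cells with MG132, 308 to 496 in untreated CHOP-/- cells, 928 to 1262 in WT cells with MG132 and 325 to 545 in untreated WT cells, and moved with MG132. Cdh1 lay above the median of no array and Epcam on all. Muscle markers, of which Acta2 and Acta1 were above the median of every array and Myh11 and Myog of none, summed to 31056 to 34247 in CHOP-/- cells with MG132, 34092 to 38409 in untreated CHOP-/- cells, 18627 to 19245 in WT cells with MG132 and 27064 to 34756 in untreated WT cells. Cartilage and bone markers summed to 632 to 803 in CHOP-/- cells with MG132, 338 to 534 in untreated CHOP-/- cells, 631 to 839 in WT cells with MG132 and 239 to 504 in untreated WT cells, with Col2a1 and Ibsp above the median of no array. The part of these shifts in the results on matrix genes was not tested.

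Collagens are made as procollagen chains in the endoplasmic reticulum (ER), where prolyl and lysyl hydroxylases modify them and the chaperone HSP47 (Serpinh1) holds the triple helix. After secretion the lysyl oxidases cross-link the fibres, and glycoproteins such as fibronectin, fibrillins and laminins, with proteoglycans such as decorin and versican, connect them to each other and to cells. Fibroblasts are the main source of this matrix, and its synthesis is one of the large loads on their ER.

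Collagen chains fell with MG132 in both genotypes. In CHOP-/- cells 14 of 16 tested chains fell and 0 rose, with a median log2 change of -0.63. In WT cells 12 fell and 1 rose, with a median of -0.41. Across all tested genes limma called 62.4% in CHOP-/- cells (36.7% lower, 25.7% higher, median -0.07) and 64% in WT cells (36.8% lower, 27.1% higher, median -0.07), so the share of falling chains, 14 of 16 and 12 of 16, is read against those shares. Fewer cells of a type and less RNA per cell cannot be told apart in such bulk samples. Centring every array on the median of the tested genes, a setting chosen after the data were seen, raised all changes by about 0.14 in CHOP-/- cells and 0.20 in WT cells. The counts of chains then became 13 lower and 0 higher in CHOP-/- cells and 7 lower and 4 higher in WT cells, where Col4a2 (0.03) and Col6a3 (0.17) turned positive. All genes were then split into 27.6% lower and 34.9% higher in CHOP-/- cells and 24.9% lower and 40.0% higher in WT cells.

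**Figure D1:**
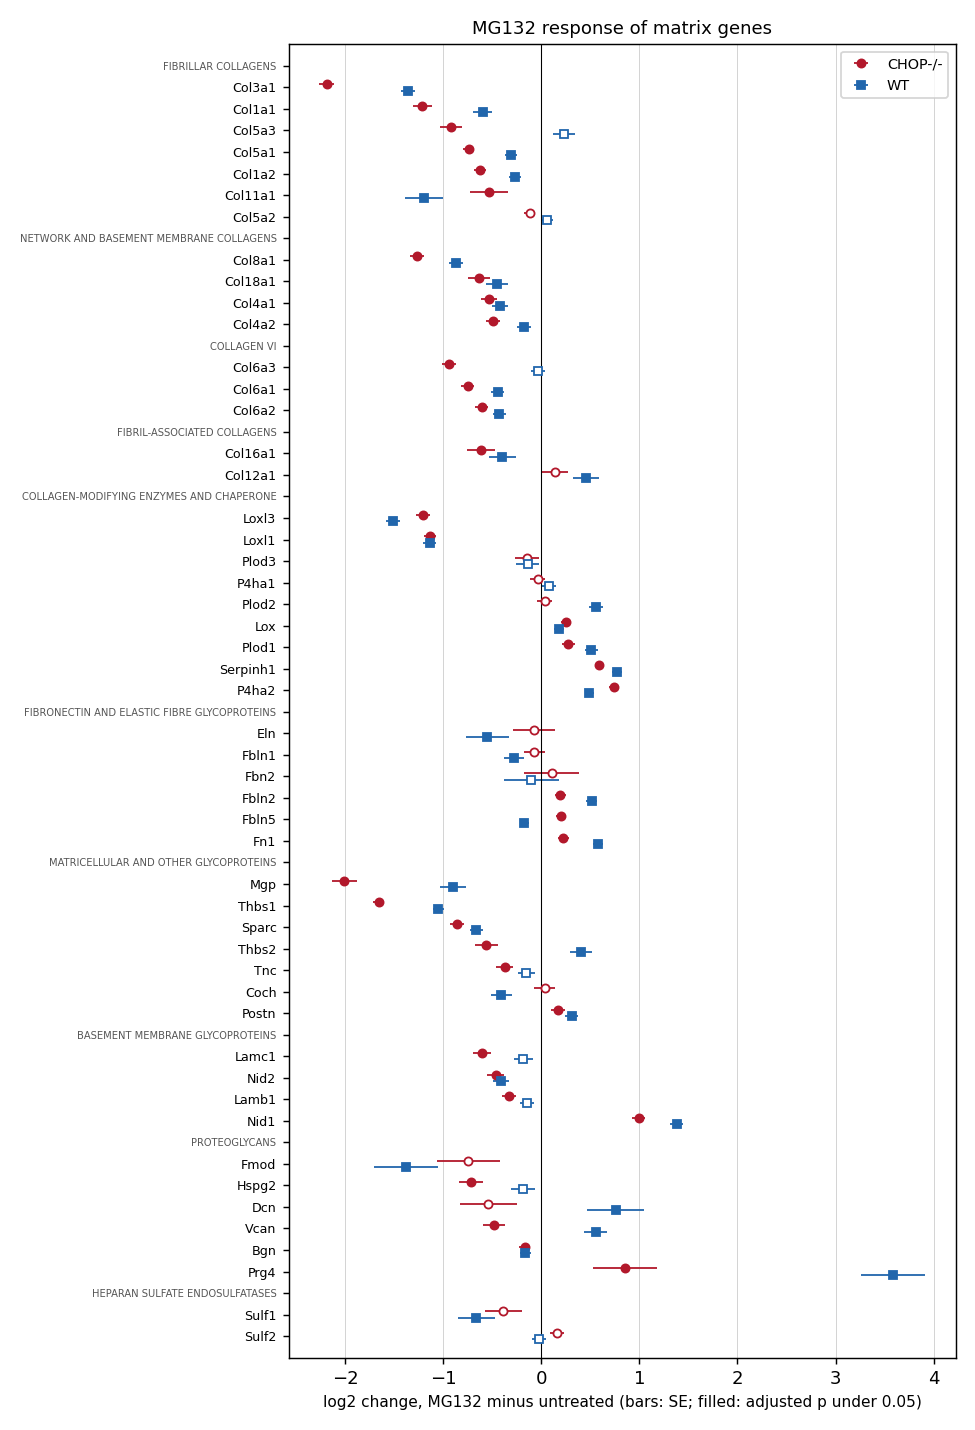
Log2 change with MG132 (x axis) of the 50 tested matrix genes, grouped by role, in CHOP-/- cells (circles) and WT cells (squares), with bars of 1 SE and filled symbols where the adjusted p was under 0.05. Collagen chains lie mostly left of 0, with the CHOP-/- point further left for most, while P4ha2, Serpinh1, Nid1 and Fn1 lie to the right in both genotypes.

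Fibrillar collagens form the banded fibres of connective tissue. Col3a1, the chain of type III collagen, had signals of 1479, 1499, 1519 and 1689 in CHOP-/- cells with MG132, against 6424, 8008, 7160 and 6968 in untreated CHOP-/- cells. In WT cells it had 1081, 1101, 1280 and 1271 with MG132, against 3171, 3137, 2810 and 3104 untreated. All treated arrays lay below all untreated arrays of their genotype, with log2 changes of -2.19 (SE 0.07, adjusted p = 1.58e-15) in CHOP-/- and -1.36 (SE 0.07, adjusted p = 1.98e-12) in WT cells. Col1a1, the alpha-1 chain of type I collagen, had 3879, 5432, 4373 and 5224 in CHOP-/- cells with MG132, against 10401, 12569, 9458 and 11376 in untreated CHOP-/- cells. WT cells gave 11348, 13453, 12277 and 13848 with MG132, against 17994, 20031, 18440 and 20663 untreated. The groups did not overlap in either genotype, and the changes were -1.21 (SE 0.10) and -0.60 (SE 0.10). Its partner chain Col1a2 had 17347, 18706, 17599 and 18017 in CHOP-/- cells with MG132, against 26537, 29764, 27468 and 26996 untreated, and in WT cells 20559, 20438, 22866 and 22994 with MG132, against 23245, 26694, 28734 and 26396 untreated. It fell without overlap, at -0.63 (SE 0.06) and -0.27 (SE 0.06), and the WT call was lost under the centring on tested genes (-0.07, adjusted p = 0.404). A further, dimmer probe set of Col1a2 gave larger falls of -1.57 in CHOP-/- and -1.34 in WT cells, so the size of its change depends on the probe set.

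The type V chains, which nucleate type I fibrils, differed among themselves. Col5a1 fell at -0.74 (SE 0.06) in CHOP-/- and -0.31 (SE 0.06) in WT cells. Col5a2 passed the test in neither, at -0.12 and 0.06, by its brighter probe set. Its dimmer one gave -1.25 and -0.46, and the CHOP-/- call was gained with the mean of both (-0.69), under quantile normalisation (-0.29), with the replicate block and in 5 other settings. Col5a3 had 346, 466, 399.9 and 422 in CHOP-/- cells with MG132, against 759, 806, 820.3 and 745 untreated, a fall of -0.92 (SE 0.11) without overlap. In WT cells it gave 299, 304, 412 and 316 with MG132, against 285, 257, 286 and 290.3 untreated, and 0.23 did not pass (adjusted p = 0.0823). Col11a1, a minor fibrillar chain typical of cartilage, had 30.5, 48.5, 28.9 and 40.5 in CHOP-/- cells with MG132, against 67.7, 58.8, 63.3 and 51.8 untreated, and 155, 124, 170.4 and 137 in WT cells with MG132, against 415, 287, 331 and 403 untreated. It fell at -0.54 (SE 0.20) and -1.20 (SE 0.20). The CHOP-/- signals were below the array medians, and that call was lost without replicate 1 or 3 of the treated or replicate 1 of the untreated CHOP-/- cells (-0.46 to -0.49), and also under either median centring, with 64 units added or with only the groups compared (adjusted p = 0.0558 to 0.113).

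The 4 tested network and basement membrane chains fell in both genotypes, though not under every setting. Col8a1, a chain of the network-forming type VIII collagen, had 2583, 2619, 2266 and 2624 in CHOP-/- cells with MG132, against 6120, 6298, 5579 and 6438 untreated, and 1678, 2103, 1852 and 1799 in WT cells with MG132, against 3507, 3262, 3210 and 3620 untreated, with changes of -1.27 (SE 0.07) and -0.87 (SE 0.07) and no overlap. The type IV chains of basement membranes fell less, Col4a1 at -0.53 (SE 0.08) and -0.42 (SE 0.08) and Col4a2 at -0.50 (SE 0.07) and -0.18 (SE 0.07). In WT cells Col4a1 gave -0.08 and did not pass by the mean of its probe sets, of which the dimmer gave 0.26. The WT call of Col4a2, whose groups overlapped, was lost without a filter, under quantile normalisation (-0.14) and when any of 6 of the 8 WT arrays was left out (-0.14 to -0.18). Col18a1, the parent chain of endostatin, fell at -0.64 (SE 0.11) and -0.45 (SE 0.11). The beaded filaments of type VI collagen need chains from 3 genes. Col6a1 and Col6a2 fell in both genotypes, at -0.75 and -0.61 in CHOP-/- and -0.45 and -0.43 in WT cells. Col6a3 had 1978, 2232, 2529 and 2286 in CHOP-/- cells with MG132, against 4260, 4706, 4104 and 4291 untreated, a fall of -0.94 (SE 0.07). In WT cells it had 5763, 5928, 6352 and 6409 with MG132, against 7098, 6043, 5658 and 6308 untreated, groups that overlapped, with -0.03 (adjusted p = 0.7). The fibril-associated chain Col16a1 fell at -0.62 (SE 0.14) and -0.40 (SE 0.14), while Col12a1 rose in WT cells at 0.45 (SE 0.13) with overlapping groups and gave 0.14 (adjusted p = 0.383) in CHOP-/- cells.

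**Figure D2:**
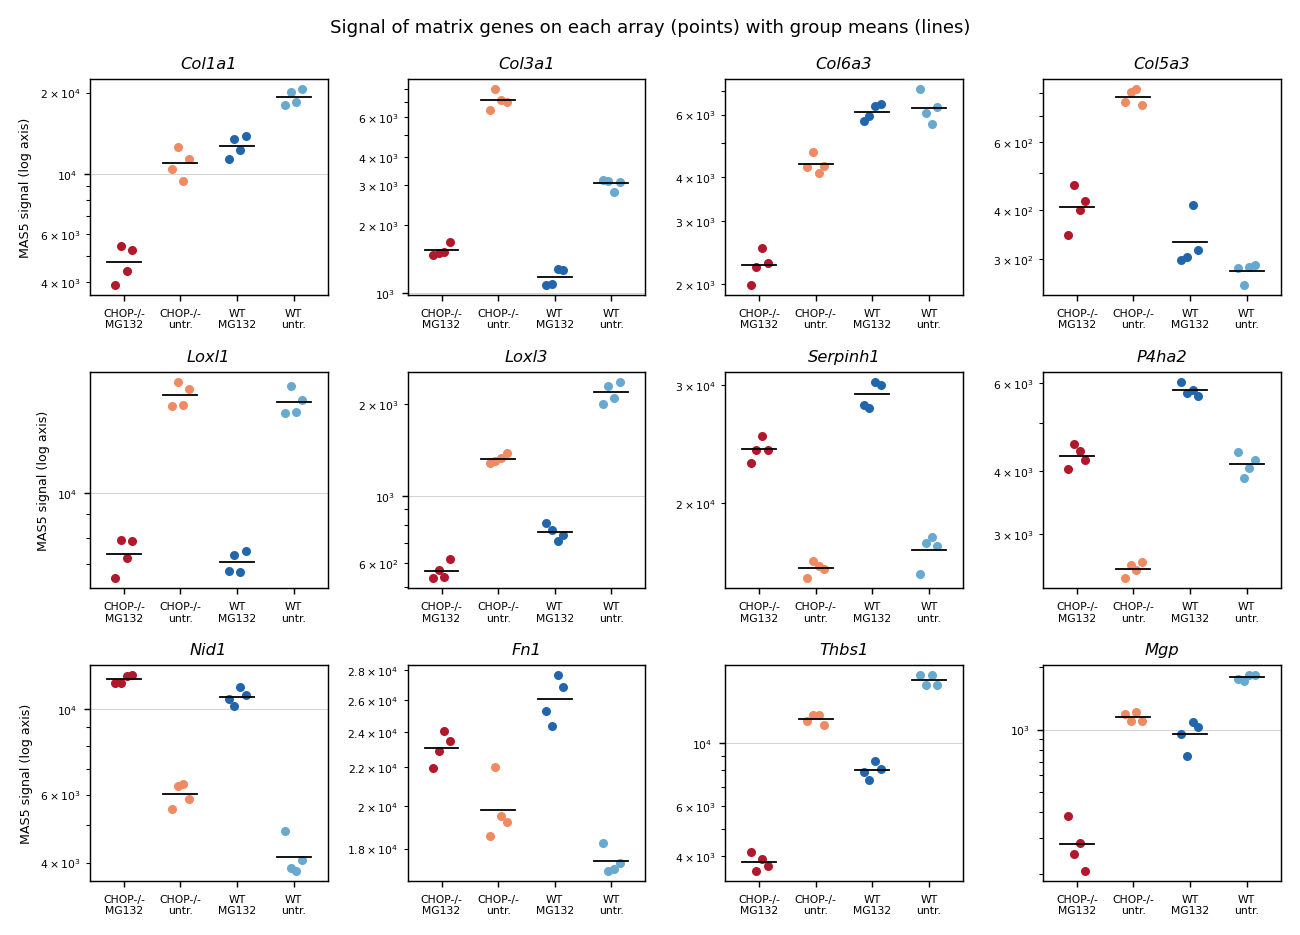
MAS5 signal (log y axis, starting where the data start) of 12 matrix genes on each of the 16 arrays (points), with group means (lines), in the order CHOP-/- with MG132, CHOP-/- untreated, WT with MG132, WT untreated. Col1a1, Col3a1, Loxl1, Loxl3, Thbs1 and Mgp are lower with MG132 in both genotypes and Serpinh1, P4ha2 and Nid1 higher, while Col6a3 and Col5a3 are lower with MG132 in the CHOP-/- cells and overlap or lie close together in the WT cells.

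Of 9 tested collagen-modifying enzymes and HSP47, 4 rose and 2 fell in CHOP-/- cells and 5 rose and 2 fell in WT cells, beside 25.7% and 36.7% of all genes in CHOP-/- and 27.1% and 36.8% in WT cells. A longer list of folding and export genes, given further on, mostly fell. Serpinh1, which encodes HSP47, had 22954, 23962, 25198 and 23983 in CHOP-/- cells with MG132, against 15406, 16356, 16101 and 15938 untreated. In WT cells it had 28031, 27759, 30343 and 29999 with MG132, against 15641, 17421, 17763 and 17241 untreated. Treated arrays lay above all untreated ones, with rises of 0.59 (SE 0.05, adjusted p = 9.47e-10) and 0.77 (SE 0.05, adjusted p = 1.41e-11). P4ha2, a catalytic subunit of collagen prolyl 4-hydroxylase, had 4045, 4527, 4397 and 4218 in CHOP-/- cells with MG132, against 2453, 2603, 2544 and 2640 untreated, and 6029, 5719, 5816 and 5639 in WT cells with MG132, against 4374, 3878, 4065 and 4210 untreated. It rose at 0.74 (SE 0.05) and 0.49 (SE 0.05) without overlap, whereas its paralogue P4ha1 gave -0.04 and 0.07 and passed in neither. Of the lysyl hydroxylases, Plod1 rose at 0.27 (SE 0.07) and 0.51 (SE 0.07) by its brighter probe set (the mean of both gave 0.31 and 0.26 and passed in neither), Plod2 rose in WT cells at 0.56 (SE 0.07) and gave 0.03 (adjusted p = 0.727) in CHOP-/- cells, and Plod3 passed in neither.

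The lysyl oxidases, which cross-link collagen and elastin outside the cell, split. Loxl3 had 533, 568, 540.1 and 619 in CHOP-/- cells with MG132, against 1281, 1303, 1333 and 1378 untreated, and 813, 773, 708 and 744 in WT cells with MG132, against 2004, 2294, 2103 and 2376 untreated, falls of -1.21 (SE 0.07) and -1.51 (SE 0.07) without overlap. Loxl1 fell at -1.14 (SE 0.06) and -1.14 (SE 0.06), nearly the same in both genotypes. Lox itself had 22261, 22250, 21402 and 21547 in CHOP-/- cells with MG132, against 17668, 19948, 19129 and 17028 untreated, and 15862, 16635, 17908 and 16643 in WT cells with MG132, against 15555, 14920, 14157 and 14641 untreated. Its rises of 0.25 (SE 0.05) and 0.18 (SE 0.05) were small, and under quantile normalisation they were 0.11 and 0.08 and passed in neither genotype.

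The promoters of Serpinh1, P4ha2 and Plod1, which rose in both genotypes by the probe sets used, are shown because proteasome inhibition is a known inducer of the heat shock factor HSF1. Windows of 300 bases, from 250 before to 50 after the start, came from RefSeq (GRCm38.p6) and are written in the direction of the gene. Capitals mark the core of a heat shock element, searched as GAANNTTC or TTCNNGAA, each its own reverse complement, so that both strands were covered. P4ha2 lies on the plus strand at chr11:54100674-54100973, Plod1 on the minus strand at chr4:147936727-147937026, and Serpinh1 on the minus strand at chr7:99353190-99353489.
P4ha2: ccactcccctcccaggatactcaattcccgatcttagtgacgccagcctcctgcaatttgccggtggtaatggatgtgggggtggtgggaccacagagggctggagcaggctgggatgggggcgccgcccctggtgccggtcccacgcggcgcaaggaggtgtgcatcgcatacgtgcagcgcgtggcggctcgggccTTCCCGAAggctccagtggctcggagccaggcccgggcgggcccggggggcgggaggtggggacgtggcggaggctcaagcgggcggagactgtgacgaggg
Plod1: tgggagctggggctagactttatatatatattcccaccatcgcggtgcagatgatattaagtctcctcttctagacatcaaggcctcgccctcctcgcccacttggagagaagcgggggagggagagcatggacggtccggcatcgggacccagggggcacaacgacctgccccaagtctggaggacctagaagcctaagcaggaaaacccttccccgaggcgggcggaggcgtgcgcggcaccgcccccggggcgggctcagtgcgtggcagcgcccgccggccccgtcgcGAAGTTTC
Serpinh1: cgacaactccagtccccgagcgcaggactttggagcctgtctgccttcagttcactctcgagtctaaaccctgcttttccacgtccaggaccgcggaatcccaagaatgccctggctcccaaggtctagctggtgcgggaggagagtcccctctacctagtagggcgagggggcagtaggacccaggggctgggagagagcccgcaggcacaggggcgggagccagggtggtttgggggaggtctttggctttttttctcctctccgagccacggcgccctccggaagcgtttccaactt
P4ha2 held TTCCCGAA from 52 bases before the start and Plod1 held GAAGTTTC from 42 bases after it, while the Serpinh1 window held neither form. P4ha2 and Plod1 were 2 of 35 matrix genes with a window in the table, and the only 2 with a match, in 2 of 42 windows. Where a gene had more than 1 window, the window with most matches was shown. A match was held by 15.1% of all 32851 windows. A match is a string of letters in this window, not a measured site.

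Among the glycoproteins, fibronectin and nidogen rose. Fn1, the fibronectin gene, had 21956, 22907, 24054 and 23489 in CHOP-/- cells with MG132, against 18554, 22025, 19498 and 19206 untreated, with 1 treated array below the highest untreated one, and 25311, 24383, 27667 and 26841 in WT cells with MG132, against 18231, 17012, 17132 and 17381 untreated, with no overlap. Its rises were 0.22 (SE 0.05) and 0.58 (SE 0.05). A further, dimmer probe set of Fn1 gave -0.59 in CHOP-/- cells, and averaging its probe sets gave -0.19 there, and quantile normalisation left 0.06. Nid1, which links laminin to type IV collagen, had 11670, 11647, 12181 and 12276 in CHOP-/- cells with MG132, against 5494, 6327, 6394 and 5841 untreated, and 10597, 10187, 11386 and 10857 in WT cells with MG132, against 4834, 3870, 3793 and 4059 untreated. The groups stood apart in both genotypes, with rises of 0.99 (SE 0.07, adjusted p = 6.42e-11) and 1.38 (SE 0.07, adjusted p = 3.34e-13). Its relative Nid2 fell instead, at -0.47 (SE 0.08) and -0.41 (SE 0.08), and the laminin chains Lamb1 and Lamc1 fell in CHOP-/- cells (-0.33 and -0.61) and passed in WT cells in neither case (-0.15 and -0.18). Of the elastic fibre genes, Fbln2 rose at 0.19 (SE 0.06) and 0.51 (SE 0.06), although the probe set without a suffix gave -0.35 in CHOP-/- cells. Eln and Fbln1 fell in WT cells with overlapping groups (-0.55 and -0.28), and Fbn2 passed in neither. The Eln call was lost without a filter, by the mean with a further probe set above the median of no array (-0.32), under the centring on tested genes (-0.35) and when any of 5 WT arrays was left out (-0.42 to -0.56). That of Fbln1 was lost under quantile normalisation (-0.18), the mean of its probe sets (-0.18), the centring on tested genes and without either of 2 WT arrays (-0.16 and -0.22), and its value was 0.05 without suffixed probe sets.

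Of 7 matricellular and other glycoproteins, which modulate how cells meet the matrix, 5 fell and 1 rose in CHOP-/- cells and 4 fell and 2 rose in WT cells, beside 36.7% lower and 25.7% higher of all genes in CHOP-/- and 36.8% and 27.1% in WT cells. Thbs1, which encodes thrombospondin 1, had 4154, 3539, 3908 and 3684 in CHOP-/- cells with MG132, against 11899, 12476, 12483 and 11522 untreated, and 7880, 7411, 8655 and 8104 in WT cells with MG132, against 17318, 15982, 17294 and 15918 untreated. It fell at -1.66 (SE 0.06, adjusted p = 1.91e-15) and -1.05 (SE 0.06, adjusted p = 1.81e-12). Mgp, an inhibitor of calcification, had 381, 249.6, 283 and 206 in CHOP-/- cells with MG132, against 1188, 1099, 1216 and 1098 untreated, and 950.5, 748, 1091 and 1026 in WT cells with MG132, against 1746, 1717, 1832 and 1841 untreated. Its falls of -2.01 (SE 0.13) and -0.91 (SE 0.13) left no overlap in either genotype. Sparc, a collagen-binding glycoprotein, fell at -0.86 (SE 0.07) and -0.66 (SE 0.07). Postn rose slightly at 0.17 (SE 0.07) and 0.31 (SE 0.07), and the CHOP-/- call was lost under quantile normalisation (0.14), without a filter, and when any of 6 single CHOP-/- arrays was left out (0.15 to 0.18).

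Of the proteoglycans, Prg4, which encodes the lubricant lubricin, had 84.2, 59.7, 57.5 and 69.8 in CHOP-/- cells with MG132, against 38.1, 29.9, 48.6 and 12.3 untreated, and 413, 391, 517 and 533 in WT cells with MG132, against 37.8, 54.6, 10.1 and 8.72 untreated. Only the treated WT arrays lay above the array medians. The rises were 0.85 (SE 0.33, adjusted p = 0.03) and 3.59 (SE 0.33), limited by the 16 units added to each signal. Prg4 entered the test through the treated WT arrays, so no p-value is given for the WT rise. The CHOP-/- call was lost without replicate 1 or 4 of the treated (0.76 and 0.83) or replicate 2 or 4 of the untreated CHOP-/- cells (0.85 and 0.61). Fmod, which encodes fibromodulin, a regulator of fibril thickness, had 5.49, 33.3, 80.8 and 26.4 in CHOP-/- cells with MG132, against 41, 69.4, 66.6 and 69.3 untreated, and 88.2, 100.1, 70.4 and 76.5 in WT cells with MG132, against 229.6, 250.4, 236 and 252 untreated. It fell in WT cells at -1.38 (SE 0.32), but it entered the test mainly through the untreated WT arrays, so no p-value is given for that fall. Fmod did not pass in CHOP-/- cells (-0.74, adjusted p = 0.0518), where its signals were below the array medians. Bgn, which encodes biglycan, fell at -0.17 and -0.17, and the centring on tested genes turned the WT value to 0.04. Hspg2, the basement membrane proteoglycan perlecan, fell in CHOP-/- cells at -0.72 (SE 0.12) and gave -0.19 (adjusted p = 0.188) in WT cells.

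The comparison of responses, CHOP-/- minus WT, asks which matrix genes responded to proteasome inhibition differently where CHOP was missing. Of the 50 tested genes 22 had a lower and 4 a higher response in the CHOP-/- cells, with a median difference of -0.21. Across all genes limma called 28.2% (14.1% lower and 14.1% higher, median -0.002), against 44.0% lower and 8.00% higher among the matrix genes. Over the 42 genes above the array median everywhere the counts were 20 and 3. Collagen chains gave 9 lower and 0 higher of 16, with a median of -0.32. Centring each array on the median of all its probe sets left 13 lower and 3 higher of the 50, beside 6.19% lower and 14.4% higher of all genes. Centring on the tested genes gave 23 lower and 2 higher, beside 17.6% and 10.9%.

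Among the chains, Col5a3 differed by -1.15 (SE 0.16, adjusted p = 2.09e-05), Col6a3 by -0.91 (SE 0.10, adjusted p = 1.89e-06), Col3a1 by -0.83 (SE 0.10, adjusted p = 5.22e-06) and Col1a1 by -0.61 (SE 0.14, adjusted p = 0.00199). In these genes the fall with MG132 was larger in the CHOP-/- cells or was called there alone. The mean of all probe sets left -0.53 for Col5a3, which did not pass, but its other probe set, of mean signal 15.66, lay above the median of no array. Smaller differences were those of Col5a1 (-0.43), Col8a1 (-0.40), Col1a2 (-0.35), Col4a2 (-0.32) and Col6a1 (-0.31). The difference of Col5a1 rested on its brightest probe set, since its dimmer ones gave -0.06 and 0.62 and the mean of all its probe sets turned to 0.04. Among the glycoproteins and proteoglycans Mgp differed by -1.10 (SE 0.19, adjusted p = 0.000177) and Vcan by -1.04 (SE 0.16, adjusted p = 7.43e-05). Thbs2 differed by -0.96 (SE 0.16, adjusted p = 0.000168) and Thbs1 by -0.61 (SE 0.08, adjusted p = 1.01e-05). Dcn gave -1.30 (SE 0.41), with WT signals of 43.2 to 97.43 with MG132 and 10.6 to 92.55 untreated, mostly below the array medians. The added units shape the size of this difference. Dcn entered the test mainly through the CHOP-/- arrays, so no p-value is given for its difference. Prg4 gave -2.74 (SE 0.46), a size limited by the added units. It entered the test through the treated WT arrays alone, so no p-value is given for this difference. Vcan and Thbs2 each fell in CHOP-/- and rose in WT cells by the probe sets used. Vcan, the large hyaluronan-binding proteoglycan versican, had 1003, 1027, 1075 and 1039 in CHOP-/- cells with MG132, against 1578, 1436, 1494 and 1325 untreated, and 388, 425, 383 and 363 in WT cells with MG132, against 309, 212, 217 and 323 untreated, a fall of -0.48 and a rise of 0.55. Over its 8 single-gene probe sets the mean difference was -0.24 and neither it nor either response passed. That mean takes in probe sets above the median of no array, with mean signals of 3.487 to 29.2. The Vcan probe sets above the median on 10 or more arrays gave differences of -0.54, -1.04 and -1.30. The first of these gave 0.07 in the CHOP-/- response, so it did not show the fall, and 0.61 in WT cells. Thbs2, a thrombospondin that limits vessel growth, fell in CHOP-/- cells at -0.56 (SE 0.11) and rose in WT cells at 0.40 (SE 0.11), there with overlapping groups. Further probe sets of Thbs2 gave -1.62 and -1.36 in CHOP-/- cells and only 0.13 and 0.096 in WT cells. Dcn, by its mean over all probe sets, differed by -0.65 and did not pass, where its other probe set, of mean signal 26.07, lay above the median of no array. Dcn also lost its difference without replicate 1 of the treated (-1.13) or replicate 4 of the untreated WT cells (-1.03).

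The 4 higher responses were small. Fbln5, which encodes fibulin 5, a protein that helps elastic fibres assemble, had 4956, 4824, 4944 and 5065 in CHOP-/- cells with MG132, against 3988, 4497, 4353 and 4442 untreated, and 12258, 12672, 12030 and 12711 in WT cells with MG132, against 14109, 13945, 13499 and 14566 untreated. It rose in CHOP-/- cells at 0.20 (SE 0.04) and fell in WT cells at -0.18 (SE 0.04), each without overlap, a difference of 0.37 (SE 0.06, adjusted p = 0.000148). Under the centring on tested genes its WT value turned to 0.03. The others were Coch at 0.44 (SE 0.15), Loxl3 at 0.30 (SE 0.10) and P4ha2 at 0.25 (SE 0.07). Coch signals in CHOP-/- cells lay around the array medians (67.22 to 109.9 with MG132, 75.58 to 101.8 untreated), and its CHOP-/- response was 0.035. Its difference thus reflects the fall of -0.408 in WT cells, and Coch entered the test mainly through the WT arrays. The calls of Coch and Loxl3 were each lost when single arrays were left out (0.37 to 0.45 and 0.26 to 0.29). CHOP and ATF proteins bind composite C/EBP-ATF sites. A promoter window of Fbln5 is shown because it alone, of 42 windows from 35 matrix genes, held the letters TGATGNAA on either strand. These letters stand in capitals from 124 bases before the start, in the window on the minus strand at chr12:101818435-101818734. Another window of Fbln5, at chr12:101819070-101819369, did not hold them. Of all windows 3.97% held them.
Fbln5: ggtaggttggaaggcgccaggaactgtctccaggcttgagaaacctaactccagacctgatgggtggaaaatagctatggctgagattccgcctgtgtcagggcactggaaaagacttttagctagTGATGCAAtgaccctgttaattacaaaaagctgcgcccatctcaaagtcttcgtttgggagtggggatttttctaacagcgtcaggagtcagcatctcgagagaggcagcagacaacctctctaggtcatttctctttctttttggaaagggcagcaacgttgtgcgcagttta

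The genotypes differed in matrix genes whether or not MG132 was present. Without treatment 19 of the 50 tested genes were higher and 20 lower in CHOP-/- than in WT cells, beside 28.5% and 26.8% of all genes (55.3% in either direction). With MG132 17 were higher and 27 lower, beside 30.6% and 28.0% of all genes (58.6% in either direction). Over the 42 genes above the array median everywhere the counts were 18 and 15 without and 16 and 21 with MG132. The allele and the cell isolate cannot be told apart in these differences, and the macrophage marker sums given above were higher in CHOP-/- cells at both treatments through Cd14, while Csf1r and Cd68 were lower in mean. The muscle marker sums were higher in CHOP-/- cells with MG132 and overlapped without it. Among the fibroblast markers Pdgfra was lower and Thy1 higher in CHOP-/- cells at both treatments. The split of all genes was 34.1% higher and 21.7% lower without treatment under the centring on tested genes, and 35.2% and 20.2% with MG132 under the centring on all probe sets. The matrix genes then gave 19 higher and 19 lower, and 18 higher and 25 lower.

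**Figure D3:**
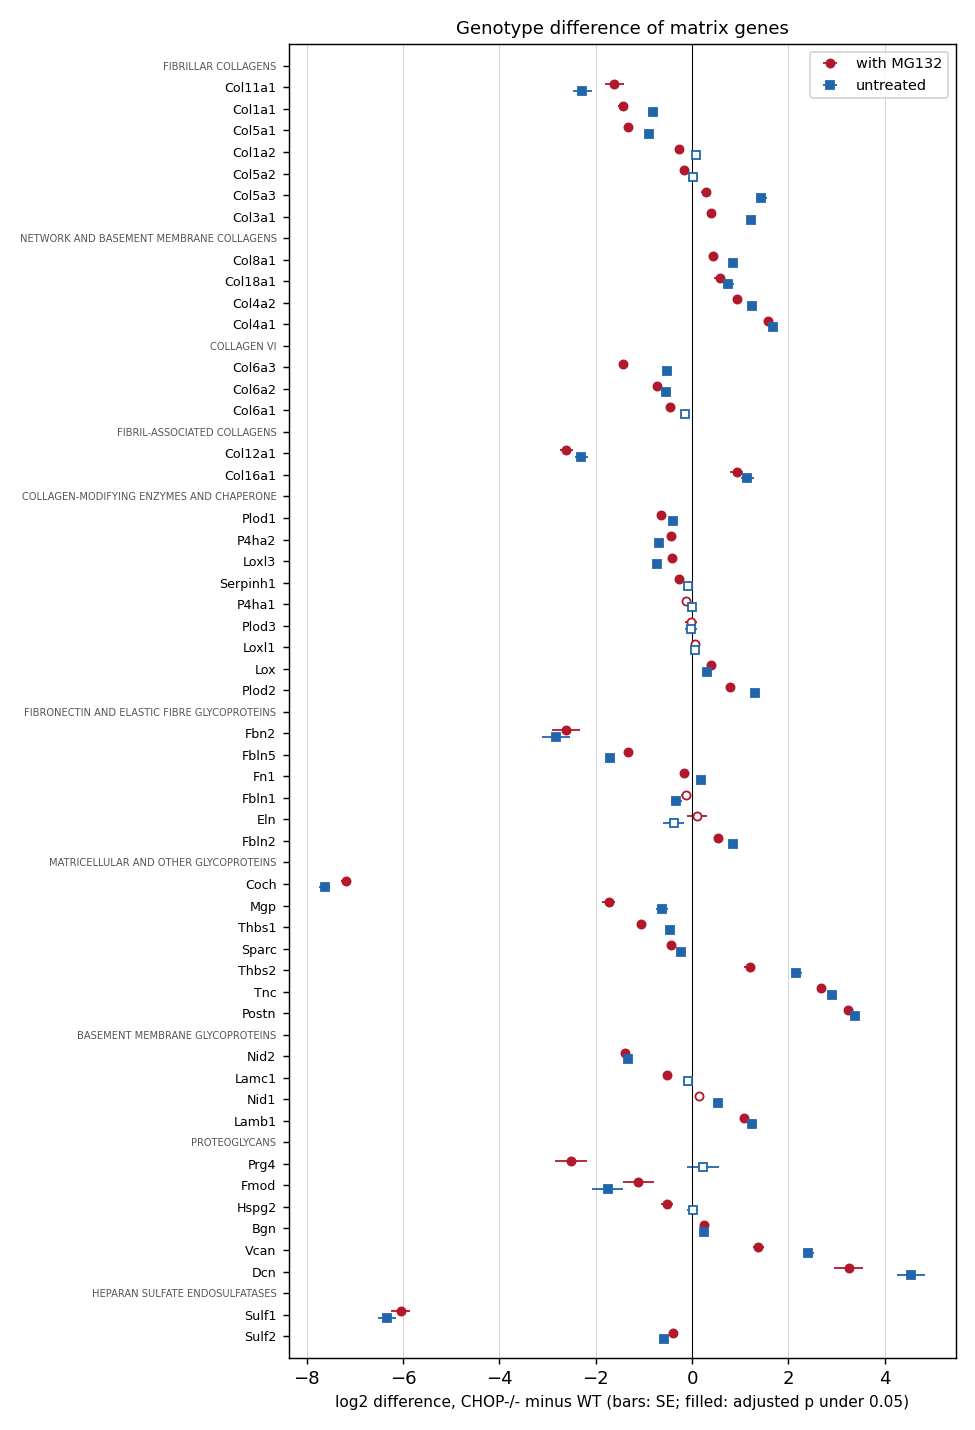
Log2 difference between CHOP-/- and WT cells (x axis) of the 50 tested matrix genes, grouped by role, with MG132 (circles) and untreated (squares), with bars of 1 SE and filled symbols where the adjusted p was under 0.05. Coch and Sulf1 lie furthest left at both treatments, Dcn, Postn and Tnc furthest right, and the 4 basement membrane and network collagens lie right of 0.

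The widest gap was that of Coch, which encodes cochlin, a secreted protein with collagen-binding domains known from the inner ear. It had 109.9, 89, 67.2 and 105 in CHOP-/- cells and 15891, 15740, 15709 and 15222 in WT cells with MG132. Untreated cells gave 96.4, 83.4, 75.6 and 102 in the CHOP-/- and 18564, 20947, 23227 and 20538 in the WT group. The CHOP-/- signals lay around the array medians, and the log2 differences of -7.19 (SE 0.11) and -7.63 (SE 0.11) are limited by the added 16 units. Sulf1, an enzyme that removes 6-O-sulfate from heparan sulfate, had 15.4, 20.2, 35.3 and 23.4 in CHOP-/- and 2488, 2649, 2450 and 2691 in WT cells with MG132. Untreated it had 58.5, 17, 28.9 and 45.3 in CHOP-/- and 4500, 3679, 4036 and 4152 in WT cells. Its CHOP-/- signals lay below every array median, with differences of -6.05 (SE 0.19) and -6.33 (SE 0.19). Sulf1 gave -7.09 and -6.82 by a further probe set, of mean linear signal 2141 against 1681 for the one used. Its relative Sulf2 was lower by far less, at -0.41 and -0.59. Further probe sets of Sulf2 gave -0.326 and -0.478 with MG132, but 0.115 and 0.455 untreated, the opposite sign to the one used. Fbn2, a fibrillin of developing elastic fibres, had 23.2, 64.2, 81.9 and 55.5 in CHOP-/- and 443, 346, 469.9 and 372 in WT cells with MG132, and 69.7, 52.1, 63.5 and 19.6 in CHOP-/- and 540.5, 405, 315 and 521 in WT cells untreated. Its differences were -2.62 (SE 0.28) and -2.83 (SE 0.28). Col12a1, a chain that decorates collagen fibrils, had 545, 369.9, 470.3 and 505 in CHOP-/- and 2676, 2990, 3139 and 2984 in WT cells with MG132, and 449, 405, 411 and 434 in CHOP-/- and 3034, 1923, 1731 and 2101 in WT cells untreated, with differences of -2.61 (SE 0.13) and -2.30 (SE 0.13). Every CHOP-/- array of these 4 genes lay below every WT array of the same treatment, which the choice of named genes required. Sulf1 and Fbn2 entered the test through the WT arrays alone, and Coch mainly through them.

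On the other side stood decorin, periostin and tenascin. Dcn, the small leucine-rich proteoglycan that binds collagen and TGF-beta, had 764, 722, 681 and 771 in CHOP-/- and 97.4, 67.2, 43.2 and 53.5 in WT cells with MG132. Untreated it had 1109, 1070, 1037 and 1085 in CHOP-/- and 33.5, 92.5, 17.2 and 10.6 in WT cells, differences of 3.25 (SE 0.29) and 4.55 (SE 0.29) against WT signals below the array medians, apart from 1 treated array at the median. Postn, an adhesive protein of injured and developing connective tissue, had 6484, 6206, 6017 and 6158 in CHOP-/- and 627, 568, 749 and 660.5 in WT cells with MG132, and 5824, 5283, 5633 and 5410 in CHOP-/- and 490.1, 509.8, 524 and 559 in WT cells untreated. Tnc, which encodes tenascin C, had 4418, 5138, 5170 and 4888 in CHOP-/- and 706, 674, 754 and 892 in WT cells with MG132, and 5948, 6623, 5895 and 6989 in CHOP-/- and 912, 848, 871 and 733 in WT cells untreated. No array of either gene crossed between the genotypes, as the choice of named genes required. The differences were 3.23 (SE 0.07) and 3.37 (SE 0.07) for Postn and 2.68 (SE 0.09) and 2.90 (SE 0.09) for Tnc. Vcan was higher at 1.38 (SE 0.11) and 2.41 (SE 0.11). Col4a1 had 9500, 11434, 10730 and 9721 in CHOP-/- and 3366, 3656, 3257 and 3622 in WT cells with MG132, and 15226, 15559, 15469 and 13589 in CHOP-/- and 5784, 4484, 4202 and 4309 in WT cells untreated. It was higher at 1.57 (SE 0.08) and 1.68 (SE 0.08), alongside Col4a2 (0.93 and 1.25) and the laminin chain Lamb1 (1.07 and 1.25), while Nid2 (-1.38 and -1.33) was lower.

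**Figure D4:**
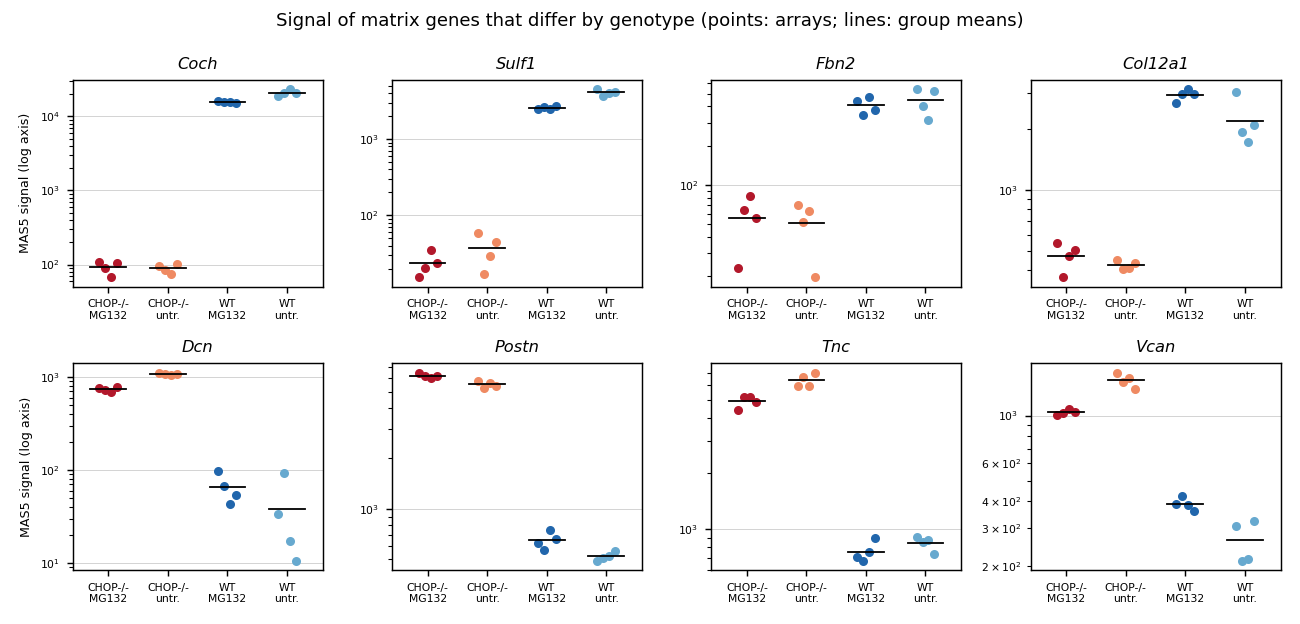
MAS5 signal (log y axis) of 8 matrix genes on each array (points) with group means (lines), in the order CHOP-/- with MG132, CHOP-/- untreated, WT with MG132, WT untreated. Coch, Sulf1, Fbn2 and Col12a1 sit lower in both CHOP-/- groups and Dcn, Postn, Tnc and Vcan higher.

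The chains of single collagens differed between genotypes by unequal amounts. Of type I collagen Col1a1 was lower in untreated CHOP-/- cells at -0.82 (SE 0.10), while Col1a2 gave 0.08 (SE 0.06) and did not pass (adjusted p = 0.273). With MG132 the values were -1.44 (SE 0.10) and -0.28 (SE 0.06). Col3a1 and Col5a3 were higher in untreated CHOP-/- cells at 1.22 and 1.43, and with MG132 the gaps were 0.38 and 0.29, where Col5a3 lost its call when any of 6 of the 8 arrays was left out (0.22 to 0.29). The chains of type VI collagen were lower with MG132 at -0.45, -0.73 and -1.44. Untreated, Col6a2 (-0.55) and Col6a3 (-0.53) were lower and Col6a1 (-0.14) did not pass.

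With MG132, 27 of the 50 tested matrix genes fell and 10 rose in CHOP-/- cells, and 25 fell and 14 rose in WT cells. By class, with MG132, 16 of 25 tested collagens and modifying proteins fell and 4 rose in CHOP-/- cells (median -0.61), and 14 fell and 6 rose in WT cells (median -0.27). Of 25 glycoproteins, proteoglycans and sulfatases 11 fell and 6 rose in CHOP-/- cells (median -0.33), and 11 fell and 8 rose in WT cells (median -0.17). In percent the glycoprotein class had 44.0% lower and 24.0% higher in CHOP-/- cells and 44.0% and 32.0% in WT cells, near the 36.7% and 25.7% and the 36.8% and 27.1% of all genes. The difference of responses was lower for 11 and higher for 2 in each class, with medians of -0.22 and -0.20. Under the centring on tested genes the WT response became 9 lower and 10 higher for the collagen class (median -0.07) and 6 lower and 9 higher for the glycoprotein class (median 0.04). Over all members that centring gave 15 lower and 19 higher in WT cells in place of 25 and 14. The classes are lists of genes, and no test between them was made.

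Other genes of matrix production are given as lists, to be read against all genes, of which 36.7% fell and 25.7% rose in CHOP-/- cells, 36.8% fell and 27.1% rose in WT cells, and 14.1% each had a lower or a higher response in CHOP-/- cells. Of 15 tested genes of collagen folding and export, 11 fell and 1 rose in each genotype, with medians of -0.38 in CHOP-/- and -0.40 in WT cells. Among them were Crtap, a subunit of the prolyl 3-hydroxylase complex (-0.86 and -0.93), and P3h4 (-1.01 and -1.34). Sec24d, a COPII coat protein (0.62), and Klhl12, an adaptor for ubiquitination of the COPII coat (0.57), were among 4 of this list with a higher response in CHOP-/- cells, and 0 were lower. Of 16 genes of procollagen processing and degradation, 8 fell and 2 rose in CHOP-/- cells and 7 fell and 8 rose in WT cells. The aggrecanase gene Adamts5 gave -2.77 in CHOP-/- cells, and its WT mean was lower too (982.1 with MG132, 2699 untreated). The metalloproteinase inhibitor gene Timp3 rose in both (1.17 and 1.74). The collagenase gene Mmp13 entered through the treated WT arrays alone. It averaged 5.95 in CHOP-/- cells with MG132, 14.6 in untreated CHOP-/- cells, 1900.0 in WT cells with MG132 and 21.4 in untreated WT cells, and no log2 change is given since the 16 added units would set it. The response differed by -0.72 for the procollagen enhancer gene Pcolce2, with 6 of the list lower and 1 higher.

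Of 19 TGF-beta pathway genes, a pathway that drives matrix synthesis, 9 fell and 7 rose in CHOP-/- cells and 6 fell and 7 rose in WT cells, shares of lower genes of 47.4% and 31.6%. All genes, against which the later lists are also read, were 36.7% lower and 25.7% higher in CHOP-/- and 36.8% and 27.1% in WT cells. In the difference of responses they were 14.1% each. The co-receptor gene Tgfbr3 fell in both (-1.20 and -1.22), the receptor gene Tgfbr2 gave -0.93 in CHOP-/- cells, and the signal transducer gene Smad3 -1.01 in WT cells. Tgfbr2 was also lower in mean in WT cells (4943 with MG132, 6439 untreated), and Smad3 in CHOP-/- cells (1279 with MG132, 2082 untreated). Responses differed for Smad2 (0.73) and Ltbp2 (-0.89), with 7 of the list lower and 3 higher. Of 15 matrix receptors, 9 fell in each genotype and 2 rose in CHOP-/- and 3 in WT cells. Itgb5 and Itga6 fell in CHOP-/- cells (-1.58 and -1.32). Their WT means were also lower with MG132 (2396 against 4587 untreated, and 11207 against 15016). Dag1, which encodes dystroglycan, fell in WT cells (-1.46), and its CHOP-/- mean was lower too (1767 with MG132, 4942 untreated). Itgb8 rose in WT cells (2.35), with CHOP-/- means of 204.5 with MG132 and 208.4 untreated. Responses were lower in CHOP-/- cells for 6 and higher for 0, with Itgb8 at -2.37 and Itga6 at -0.90. Of 23 further matrix genes, 9 fell and 0 rose in CHOP-/- cells and 8 fell and 3 rose in WT cells. The proteoglycan gene Ogn fell in both (-2.10 and -2.20). Emilin1 fell in CHOP-/- cells (-1.61), and its WT mean was lower too (296.2 with MG132, 962.6 untreated). Loxl4 rose in WT cells (1.58), with CHOP-/- means of 2235 with MG132 and 2495 untreated. Responses differed by -1.73 for Loxl4 and -2.17 for the hyaluronan synthase gene Has2, with 2 lower and 1 higher.

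33 of the tested matrix genes had at least 1 further probe set above the array median on 4 or more arrays, 43 in all. Of these 43, 8 had the opposite sign to the one used in the CHOP-/- response, 4 in the WT response and 12 in the difference of responses. Those of over 0.2 in size were Fn1, Fbln2 and 2 of Sulf2 in the CHOP-/- response, Col5a2, Col4a1 and Sulf2 in the WT response, and Col5a1, Plod1, Sulf1 and 2 of Sulf2 in the difference. For Bgn, Fmod, Lamb1 and Hspg2 the probe set used carries a suffix of the array maker for probes that may match related transcripts. The untested Col15a1 had 7.11 to 82.3 and Lum 11.03 to 80.0 over the 16 arrays.

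Further calls named above were lost under single settings. The mean of all probe sets ended those of Col5a3 in the CHOP-/- response (-0.29), Fbln5 in the CHOP-/- response (0.15) and the difference (0.47), Thbs2 in the WT response (0.21) and between genotypes with MG132 (0.29), Col1a2 (-0.14) and Lamc1 (-0.21) in the difference, and Sulf2 between the untreated genotypes (-0.01). For Col5a3 and Fbln5 that mean takes in a dim probe set, above the median of no array and of 1 array. Leaving out suffixed probe sets ended those of Col3a1 (0.12) and Col1a2 (-0.09) between genotypes with MG132 and of Fbln2 in the WT response (0.66) and the difference (-1.01). The centring on tested genes ended the WT falls of Col5a1 (-0.11), Col16a1 (-0.20) and Col18a1 (-0.25) and the CHOP-/- fall of Bgn (-0.03), and quantile normalisation those of Col16a1 in WT (-0.31) and the rise of Fbln2 in CHOP-/- cells (0.08). Centring on all probe sets ended the differences of Col4a2 (-0.23), Col6a1 (-0.21), Col8a1 (-0.31), Plod2 (-0.43), Nid1 (-0.30), Fbln2 (-0.23), Lamc1 (-0.33), Hspg2 (-0.44), Serpinh1 (-0.09) and Loxl3 (0.40). Leaving out single arrays ended the difference of Serpinh1 in 11 cases (-0.14 to -0.19), of Hspg2 in 7 (-0.45 to -0.50), and of Col4a2 in 5 (-0.26 to -0.29).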

How the data were processed

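RNA of 16 plates was labelled with a kit that primes at the 3' end and hybridised to Affymetrix arrays, per the labels' protocols. The deposited values are linear intensity values per probe set, summarised with MAS5 per the submitters' processing notes. Their trimmed mean, with 2% left out at each end, was 1000 on every array, and no detection calls were used here. Of 45101 probe sets, 64 were controls, 9160 had no gene, 932 had several and 34945 had 1 gene, of which 34741 matched RefSeq by gene ID.

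The scale of analysis was log2(signal + 16), without added normalisation. Each gene was represented by its probe set of highest mean on this scale, and genes above the array median on at least 4 of 16 arrays were kept. The 5 comparisons came from 1 fit over all 16 arrays and 4 groups in limma 3.58.1 (R 4.3.3; lmFit, eBayes with trend), two-sided, Benjamini-Hochberg adjusted across the 11457 genes, called under 0.05. In data simulated for the WT response over these genes, 95% of 100 genes changed by 1 on the log2 scale and 65% of 100 changed by 0.5 were called, and for the difference of responses 85% and 53%. The other 11257 genes were left unchanged there, while 64% of all genes were called in the WT response and 28.2% in the difference. The adjusted threshold depends on that share, so the simulated percentages do not carry over to the data. The number of arrays limits the precision.

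Samples were grouped by genotype and treatment as labelled. Genes given on every array were, per comparison, the 4 called members with the largest rise and the 4 with the largest fall among those whose groups did not overlap (no such condition for the difference), and Col1a1, Col1a2, Fn1, Lox and Serpinh1; the other members could be named in their class. Absence of overlap in the comparison that named a gene was thus part of the choice. Of each other list the 2 genes with the smallest adjusted p per MG132 comparison and for the difference were named. The members and lists were chosen with earlier results of these data known. Alternatives were other added units, filters, normalisations, probe set rules, samples in the fit, a replicate block and leaving out each array. Replicate numbers were checked for pairing. Same-numbered arrays correlated weakly in their deviations (median 0.036, against -0.016 for other pairs), and not every pair passed 0.1, so they were not taken as paired.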

Additional observations from a re-analysis of the deposited data

Results flagged for a closer look

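In 8 of 208 groups of 4 arrays of the matrix genes, 1 array stood far from the other 3, where chance alone marks about 1 group in 20. Array 3 of the CHOP-/- cells with MG132 gave 2266 for Col8a1, against 2583 to 2624 on the others. Among untreated CHOP-/- cells, array 4 gave 13589 for Col4a1 (others 15226 to 15559), and array 1 gave 94.4 for Eln (others 134 to 142.6) and 41.0 for Fmod (others 66.6 to 69.4). Among WT cells with MG132, array 3 gave 411.8 for Col5a3 (others 299.2 to 315.8) and array 4 gave 2333 for Lamc1 (others 2024 to 2058). Among untreated WT cells, array 2 gave 256.8 for Col5a3 (others 285 to 290.3) and array 4 gave 434.9 for Col16a1 (others 604.7 to 627.1).

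The response to MG132 differed between CHOP-/- and WT cells in 26 matrix genes by the limma test of the difference itself. On the log2 scale, CHOP-/- minus WT, the collagen chains differed by -0.61 for Col1a1, -0.35 for Col1a2, -0.83 for Col3a1, -0.43 for Col5a1, -1.15 for Col5a3, -0.32 for Col4a2, -0.40 for Col8a1, -0.31 for Col6a1 and -0.91 for Col6a3. Of the modifying proteins, Plod2 differed by -0.53, Serpinh1 by -0.18 (a call lost in 13 settings), Loxl3 by 0.30 and P4ha2 by 0.25. Of the glycoproteins, Fn1 differed by -0.35, Fbln2 by -0.32, Thbs1 by -0.61, Thbs2 by -0.96, Mgp by -1.10, Nid1 by -0.39, Lamc1 by -0.42, Fbln5 by 0.37 and Coch by 0.44 (CHOP-/- signals around the array medians). Of the proteoglycans, Vcan differed by -1.04, Hspg2 by -0.53 (a call lost in 8 settings) and Dcn by -1.30 (WT signals mostly below the array medians). Prg4 differed by -2.74 (a gene that entered through the treated WT arrays alone).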

How the results depend on the processing

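Direction and call were the same under every alternative run for 32 of 50 matrix genes in the CHOP-/- response, 24 in the WT response, 39 and 41 in the genotype difference with and without MG132, and 21 in the difference of responses. Centring on the tested genes, chosen after seeing the data, left 15 lower genes in the WT response and turned Col4a2 to 0.028, Col6a3 to 0.169, Fbln5 to 0.028, Bgn to 0.038 and Sulf2 to 0.181, since it raises all WT changes. It left 2 higher genes in the difference. The mean of all probe sets left 6 higher genes in the CHOP-/- response and turned Fn1 (-0.185), Fbln2 (-0.080) and Sulf2 (-0.363) there, Fn1 between the untreated genotypes (-0.291), Col5a2 in the WT response (-0.201), and Col5a1 (0.043) and Sulf2 (-0.397) in the difference. Without suffixed probe sets, Fbln2 turned to -0.353 in the CHOP-/- response and -0.058 between genotypes with MG132, and Fbln1 to 0.049 in the WT response. Quantile normalisation turned Col5a2 in the WT response to -0.123. In the difference, centring on all probe sets left 16 called and 13 lower genes, and 64 added units gave 7 higher. Leaving out single arrays gave 2 to 4 higher genes, with 2 without replicate 4 of the CHOP-/- cells with MG132, replicate 3 of the WT cells with MG132 or replicate 2 of the untreated WT cells. Except where the construction is named, the cause was not tested. With the replicate number as a block, 39 genes were called in the CHOP-/- response, 39 in the WT response, 44 and 41 between genotypes with and without MG132, and 27 in the difference, beside 37, 39, 44, 39 and 26. Same-numbered arrays correlated at -0.067 to 0.160 in their deviations. All 4 such pairs were positive between untreated CHOP-/- and untreated WT arrays (0.081 to 0.160) and between treated and untreated CHOP-/- arrays (0.024 to 0.140), a weak tendency below the level taken as pairing. Signals near or below the array medians limit Coch, Sulf1, Dcn, Fbn2, Col11a1, Fmod and Prg4.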
